A study of Bos taurus with 2 samples.

Results

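A tentative consensus (TC) sequence is a transcript assembled by computer from overlapping expressed sequence tags, which are short single reads of cloned messenger RNA. Many TC sequences on this bovine array carry no gene symbol, and the files name them by a number alone. The members described here are the probes that are not controls and whose gene name is TC followed by digits. There were 3380 of them among 43653 probes, for 3280 TC numbers. Of these numbers, 94 had 2 probes and 3 had 3 probes. They were compared with 27400 probes whose identifier is an NM_ accession, the RefSeq prefix of a curated transcript, and with 1601 probes of XM_ accessions, which are computer predictions.

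RNA came from whey of raw milk of Holstein cows. Whey was spun at 10000 g for 90 min, and the pellet, called exosome in the labels, was washed 2 times. The exosome array held RNA of this pellet and the supernatant array held RNA of the fluid above it. Both fractions shared the pooling of RNA from 3 milks in equal parts, 100 ng of which was labelled with Cy3, a green dye. Each fraction had 1 array, on the same slide and with no replicate, so no value below has a test or an error between milks, and the number of arrays limits the precision. Exosomes are small vesicles that cells release, and milk vesicles are known to carry messenger RNA of the mammary epithelium. Like other mammalian genomes, the bovine genome holds many copies of short simple repeats and of mobile elements, which occur in many transcripts of unrelated genes.

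A probe was called detected where the scanner software marked it well above background. Probes of the milk genes CSN1S1, CSN1S2, CSN2, CSN3, LALBA, PAEP and GLYCAM1 were detected on both arrays. CD9, CD63 and CD81, vesicle membrane proteins, were detected on the exosome array, and only CD9 of them on the supernatant array. CD3E, which marks T cells, was detected on neither array. CD14, which marks monocytes, was detected on both.

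The sequences below show what the brightest TC probes of the supernatant had in common. Capitals mark runs of at least 16 bases that also occur, in either orientation, in another probe of the array. TC450994 lies at chr18:25002046-25002105 (+ strand), TC393565 at chr29:43377453-43377512 (+), TC452693 at chr17:74052459-74052518 (+) and TC445578 at chr10:89298294-89298353 (+). All coordinates are the files' own, in build Btau_3.1, and exon or UTR positions were not analysed here.
TC445578: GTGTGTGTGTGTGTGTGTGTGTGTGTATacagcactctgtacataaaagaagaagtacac
TC393565: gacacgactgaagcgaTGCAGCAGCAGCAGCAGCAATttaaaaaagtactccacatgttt
TC450994: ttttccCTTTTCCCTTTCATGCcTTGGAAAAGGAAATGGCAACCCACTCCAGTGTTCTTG
TC452693: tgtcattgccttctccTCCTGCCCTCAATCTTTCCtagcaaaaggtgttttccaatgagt

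The next sequences are TC probes that were far brighter on the exosome array. Capitals mark AATAAA or ATTAAA, the hexamers that commonly signal polyadenylation, and runs of 5 or more G. TC459418 lies at chr3:22457242-22457301 (+), TC410991 at chr15:64733683-64733742 (-), TC471483 at chr6:88300953-88304437 (+) and TC420471 at chr28:44775664-44775723 (-). A span longer than the probe means that the files place it across a gap. For TC420471, whose probe holds a hexamer, 30 bases are shown.
TC459418: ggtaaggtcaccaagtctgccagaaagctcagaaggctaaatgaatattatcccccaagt
TC410991: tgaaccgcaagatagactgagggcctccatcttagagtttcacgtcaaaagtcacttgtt
TC471483: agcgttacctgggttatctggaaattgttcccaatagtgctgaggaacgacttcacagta
TC420471: gtactcAATAAAggtgttgccatgtggaac

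Another set was brighter on the supernatant array than on the exosome array. With the same marks, TC425043 lies at chr5:61408572-61408631 (-), TC445102 at chr19:41394163-41394222 (-), TC473682 at chr19:9609267-9609326 (+) and TC463733 at chr2:5130020-5130078 (+). For TC463733, which has a stop codon in every sense frame, 30 bases are shown.
TC425043: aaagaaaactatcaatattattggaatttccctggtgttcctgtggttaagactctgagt
TC445102: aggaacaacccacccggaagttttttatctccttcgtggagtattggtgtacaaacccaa
TC473682: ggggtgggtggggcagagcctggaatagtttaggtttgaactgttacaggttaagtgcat
TC463733: GGGGGGtgggatacggaggggtgaattact

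The first comparison was how often TC transcripts were seen in each fraction. On the exosome array 2060 TC probes (60.9%) were detected, where 58.5% of all probes were. On the supernatant array 525 (15.5%) were detected, where 13.1% of all probes were. TC probes seen on the exosome array alone numbered 1587 (47.0%, against 46.3% of all probes). Only 52 (1.54%, against 0.978% of all probes) were seen on the supernatant array alone. A further 473 were measured on both arrays and 1268 on neither. Most TC transcripts that gave a signal therefore gave it in the vesicle pellet, as most probes of the array did.

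Against NM_ probes, the TC share was lower by 4.06 percentage points on the exosome array (NM_ 65.0%). On the supernatant array it was higher by 1.95 points (NM_ 13.6%). The exosome gap had the same sign on 23 of 30 chromosomes, and the supernatant gap on 24. Chromosomes here are sets of probes on the same arrays, so these counts are no replication. Across other choices the supernatant gap did not hold. It was -0.513 points with the scanner's weaker detection flag and -0.340 points when a detected signal had to be at least 4 times the lowest one. With 1 probe for each TC number and accession it was -1.003 points. The probe names come in 2 series, A_73_ with digits and A_73_P with digits, whose meaning the files do not state. Within the first series the supernatant gap was -1.36 points (16.9% of 2562 TC probes, 18.2% of 8412 NM_ probes). Within the second it was -0.154 points (11.4% of 818, 11.5% of 18988). The exosome gap was -3.98 points in the first series and -15.6 points in the second. Against XM_ probes the exosome comparison turned around: 50.2% of these were detected, 10.8 points below the TC probes.

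The signals of detected TC probes ranged widely in the exosome fraction, from 11.3 to 198338 in the scanner's processed intensity. Their median was 148, with quartiles of 45.2 and 506. The detected NM_ probes had a median of 211. On the supernatant array the detected TC probes had a median of 22.6, and that of the NM_ probes was 24.3. An exosome signal above 1000 was reached by 313 TC probes (9.26%, against 15.6% of NM_ probes) and a supernatant signal above 1000 by 16. Over all probes, detected or not, the median log2 signal of TC probes was 0.59 below that of NM_ probes on the exosome array (5.08 and 5.66). That gap was -0.25 after normexp and -1.07 with 1 probe for each TC number and accession, and against XM_ probes it was 1.35. The class medians in the supernatant were 1.32 and 1.32, which is the level of undetected probes. Levels of different probes depend on their binding as well as on the RNA, so these medians describe the classes and rank no transcripts.

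The second comparison was the balance between the fractions. The median probe measured on both arrays was 10.4-fold brighter on the exosome array (3.38 on the log2 scale), and differences are given relative to it. Of the 473 TC probes measured on both, 123 (26.0%) were at least 2-fold above the median probe, where 38.3% of all probes were. At least 2-fold below it were 218 (46.1%), where 37.7% of all probes were. The TC median was -0.79 on the log2 scale, with quartiles of -2.23 and 1.10, and the NM_ median was 0.43. The XM_ median was -0.92, with 25.8% of 190 probes above and 50% below, so the TC values lay nearer to the predicted than to the curated transcripts, with the difference not tested. The gap between TC and NM_ medians, -1.22, kept its sign under each alternative with the NM_ probes as the comparison. Within bands of exosome signal up to 10000 the class medians lay closer. They were -2.40 and -2.23 (TC, NM_) below 100, 0.045 and 0.050 from 100 to 1000, and 2.61 and 2.84 from 1000 to 10000. Above 10000 they were 4.17 (18 TC probes) and 5.95. The part of exosome signal in the gap was not tested. The split itself follows the scaling. With each array scaled to its 75th percentile, 8.03% lay above and 75.7% below. With no scaling, 76.5% lay above and 1.90% below. Only 43 TC probes (9.09%) were brighter on the supernatant array in the raw signals, against 7.86% of all probes and 6.76% of NM_ probes.

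The TC probe with the highest balance toward the pellet was TC459418, described as elongation factor 1-alpha 1, which brings aminoacyl-tRNA to the ribosome. Its signal was 84302 in the exosome fraction and 24.9 in the supernatant, 8.35 above the median probe on the log2 scale. TC420471, with no description, gave 44588 and 21.9, a relative difference of 7.61. TC433289 (no description, 12299 and 11.8), TC444557 (an uncharacterized predicted RNA, 15691 and 15.9) and TC428723 (9565 and 11.1) lay at 6.66, 6.57 and 6.37. These 5 transcripts were dim but detected in the supernatant and among the brighter ones in the pellet, and TC420471 and TC433289 are described as Unknown. TC428723 is described by a bacterial protein that it covers by 6 percent, its probe lies on an unplaced bovine contig, and it holds AATAAA.

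The brightest TC probe of the exosome array was TC471483, described as alpha S1 casein, the main calcium-binding milk protein. It gave 198338 against 265 (6.18 above the median probe). Its probe shared a run of bases with the CSN1S1 probe that overlaps it, and that probe gave 159824 and 27.6. TC410991, described as the short form of E74-like factor 5, gave 104060 in the exosome fraction and 5.23 in the supernatant, where it was not detected. ELF5 is a transcription factor of milk-secreting epithelium. The signal ratio was at least 11512-fold, the largest such bound among TC probes, where the bound sets the exosome signal over the lowest detected supernatant signal. The nearest ELF5 probe, 1956 bases away on the same strand, gave 87883 and 42.1. TC430716, described as IKAROS family zinc finger 2, a lymphoid transcription factor, gave 67241 and 6.80 (at least 7439-fold). Its nearest NM_ probe was for another gene, PDXK, 4911 bases away. TC439973, on an unplaced contig and 76.7% G and C, gave 79987 and 2790 and was 1.47 above the median probe, or 2.66 after normexp. It is described by a fruit fly protein of which it covers 7 percent.

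Of the 1587 TC probes seen on the exosome array alone, the median bound was at least 15.0-fold in the raw signals. Relative to the median probe, 666 of them had a bound of at least 2-fold. Among the largest was TC433014, with 24307 and 3.41 (at least 2689-fold). It is described by a bacterial acyl-carrier-protein synthase, of which it covers 5 percent, and its probe at chr22:44461012-44461071 (+) lies 617 bases from a probe of ARF4, a small GTPase of Golgi traffic, on the same strand. The ARF4 probe was also seen on the exosome array alone, at 2822 and 2.25. TC490591 (17138 and 4.67, at least 1896-fold) is described by a frog Rogdi protein. Its probe at chr2:125517485-125517544 (-) overlaps one of EIF3I, a translation initiation subunit, which gave 21301 and 2.49. In both cases the neighbouring bovine probe named another gene than the description did, and it stood on the same side.

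At the other end, 5 of the 6 lowest TC probes had supernatant signals between 36.2 and 159 and exosome signals between 14.7 and 43.7. The lowest was TC425043, described as TSC1 protein, an inhibitor of growth signalling, with 38.0 in the exosome fraction and 285 in the supernatant. It was 7.49-fold brighter in the supernatant in the raw signals and 6.28 below the median probe on the log2 scale. Its nearest NM_ probe was for another gene, RBMS2, 5595 bases away on the same strand. That probe was seen on the exosome array alone, at 511 and 1.93. TC445102, described as Aiolos, a lymphoid zinc finger factor, gave 16.7 and 70.4 (-5.45). An IKZF3 probe 828 bases away on the same strand was detected on neither array. IKZF3 is the gene symbol of Aiolos. TC457367 (39.8 and 159), TC444636 (described as RUNX2, a bone transcription factor, 14.8 and 44.6), TC473682 (43.7 and 117) and TC463733 (14.7 and 36.2) lay at -5.38, -4.97, -4.80 and -4.67. The lowest detected signals were 11.3 (exosome) and 9.04 (supernatant), and the median detected TC signal in the supernatant was 22.6. After normexp, another background correction, these 6 probes stayed below the median probe but by less: TC425043 lay at -3.85, TC457367 at -3.22, TC445102 at -2.84, TC473682 at -2.82, TC444636 at -2.46 and TC463733 at -2.38.

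Among the 52 TC probes seen on the supernatant array alone, 41 had a signal under 20, and the highest was 97.4. That was TC442703, described as dyslexia susceptibility 1 candidate gene 1 protein, with 2.63 on the exosome array, a ratio of at least 8.64-fold. A probe of the same gene (DYX1C1), 554 bases away, was also seen on the supernatant array alone, at 12.8. TC467341, TC426355 and TC405415 had bounds of at least 4.89-fold, 3.01-fold and 2.59-fold, and the first and second have no description. In all, 9 of the 52 had a bound of at least 2-fold.

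The brightest TC probes of the supernatant were nearly as bright on both arrays. TC393565, described as solute carrier family 22 member 9, an organic anion transporter, gave 7867 in the exosome fraction and 10151 in the supernatant. TC452693, described as an immunoglobulin omega chain, gave 10862 and 9895. TC445578, described as a transporter, gave 6638 and 6106. TC450994, described as taste receptor type 2, gave 5903 and 4253. Relative to the median probe they lay at -3.74, -3.24, -3.25 and -2.90, a narrow range for 4 unlike descriptions. After normexp the values were -2.41, -1.92, -2.07 and -1.72. An SLC22A9 probe 280 bases from TC393565 on the same strand was detected on neither array, at 3.57 and 5.05.

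All 16 TC probes with a supernatant signal above 1000 were measured on both arrays, and 10 of them differed by less than 2-fold between the arrays. The same held for 102 of all 473 TC probes measured on both (21.6%). NM_ probes showed it too: 125 of 163 with a supernatant signal above 1000 (76.7%), against 546 of 3519 in all (15.5%). Of the 16 TC probes, 8 shared a run of 16 bases with another probe, as 524 of all 3380 (15.5%) did. At least 7-fold brighter on the exosome array were TC439973, TC393058, TC449965, TC481776 and TC469004, and none of these shared such a run. Their probes held 76.7%, 40%, 76.7%, 63.3% and 86.7% G and C, in that order. TC488084 (2771 and 3478), TC480016 (1661 and 2002) and TC418926 (1501 and 1379) also shared no run but differed by less than 2-fold. TC485457, which shared a run, differed by 2.06-fold. Its 1 partner, a WWC1 probe with the run in the other orientation, gave 2702 and 3.37 and was not measured on both arrays. These lists were made after the values were seen.

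The shared runs seen in the printed sequences recurred in probes of unrelated genes. TC445578 shared its GT run with 14 probes of as many names, among them SFN, EPHB3, S1PR2 and PTPRC. All 14 were detected on both arrays, with a median of -3.44 relative to the median probe and a range from -4.24 to 0.34. PTPRC, which marks leukocytes, was detected on both arrays by 2 of its 4 probes, and its brightest, at 493 and 685, is among the 14. TC450994 shared runs with 16 probes of 10 names, which include ACPP, DSEL, POLH and CDNF. All 16 were detected on both arrays, between -3.69 and -2.79, with supernatant signals from 4265 to 51587. TC393565 shared its GCA run with 3 probes, TC395371, TC451581 and SLFNL1, at -3.88, -3.50 and -3.45. TC451287, described as reverse transcriptase-like, a protein of mobile elements, gave 1585 and 1209, -2.98 relative to the median probe and -1.65 after normexp. It shared runs with 6 probes of MTMR2, ZNF33B and CWC25, all of which were detected on both arrays, from -4.00 to -2.63.

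Words of this kind were then counted over the array, on both strands. They were chosen after these values were seen, so the counts describe and test nothing. Written as 6 copies of GT, a word was found in 35 probes (0.0802% of all), 2 of them TC probes. All 35 were detected on the supernatant array and 34 on the exosome array, and 26 of those 34 differed by less than 2-fold. Written as 4 copies of GCA, a word was found in 12 probes (0.0275%), 3 of them TC probes. All 12 were detected on both arrays, with a median of -3.33. The run AAGGAAATGGCAACCC of TC450994 was found in 10 probes (0.0229%), 8 of them in that orientation, and all 10 were detected on both arrays at a median of -2.93. No probe with one of these 3 words lay 2-fold above the median probe. The part of such shared words in the TC values as a whole was not tested.

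Other probes with shared runs were dark on both arrays. The 34 TC probes described as olfactory receptors, a large family of odour-sensing proteins, included several with many partners. TC407730, named after its values were seen, shared runs with 18 other probes and gave 2.47 and 2.005, not detected on either array. Of the 34, only 2 were detected in the exosome fraction and 1 in the supernatant. TC probes that shared a run with 2 or more probes in the same orientation (60) were detected in 45% and 23.3% on the exosome and supernatant arrays. With no shared run in that orientation (3016) the shares were 60.9% and 15.2%.

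Probes of the same TC number could differ widely. TC445578 has a second probe, 516 bases upstream at chr10:89297778-89297837 (+), which shares no run with another probe and holds no GT repeat.
TC445578 second probe: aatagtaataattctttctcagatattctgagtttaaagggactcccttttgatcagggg
It gave 2.67 in the exosome fraction and 2.16 in the supernatant, detected on neither, where the first gave 6638 and 6106. TC414582, described as heterogeneous nuclear ribonucleoprotein G, an RNA-binding protein, had the largest gap: 6983 and 261 by one probe, and 2.59 and 2.10 by the other. Over the 97 TC numbers with several probes, 77 had the same exosome call at each probe (52 detected, 25 not) and 20 were split. For 5 numbers several probes were measured on both arrays, and the standard deviation between probes of the same number was 0.98 on the log2 scale. These 5 include TC431630, whose probes are identical in sequence. The widest apart were those of TC479010, described as a protein kinase that binds TRAF2 and NCK, at -3.56 and -0.80. These pairs were named after their values were seen.

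The technical spread was smaller. TC431630 was printed as the same 60 bases under 2 probe names, and these gave 1743 and 1835 in the exosome fraction and 11.8 and 15.2 in the supernatant. The relative differences were 3.83 and 3.54. No TC probe was printed on several spots. Over the 9 other probes whose repeat spots were all detected on both arrays, the standard deviation of the difference between spots was 0.18 on the log2 scale. Both measures cover printing and scanning only, not the milks.

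Base composition moved with detection, and differently for the arrays. TC probes were poorer in G and C (median 40%, NM_ 45%). Of TC probes with up to 35% G and C, 5.63% were detected on the supernatant array, and of those above 45%, 33.9% were. NM_ probes went from 7.63% to 23.5%. On the exosome array the same TC bins gave 59.9% and 64.9%, and the NM_ bins 69.0% and 64.9%. In the middle band of TC composition the gap in the balance between TC and NM_ probes was -1.73 rather than -1.22. A run of 5 or more G was held by 111 TC probes (3.28%, against 2.88% of all probes). Of these, 35.1% were detected on the supernatant array, and of the rest 14.9%. Over all probes the shares with and without such a run were 37.7% and 12.4%, and over NM_ probes 40.8% and 12.8%. TC463733, shown above, has 6 G in a row. The parts of composition and G runs in the class differences were not tested beyond these values.

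The hexamer AATAAA or ATTAAA, searched in the orientation in which the files write the probe, was in 555 TC probes (16.4%, against 12.7% of all probes). The reverse complements TTTATT or TTTAAT were in 266 (7.87%). TC probes with a hexamer were detected in 66.3% in the exosome fraction and 17.5% in the supernatant. Those without were detected in 59.9% and 15.2%. The median balance was 0.17 with a hexamer (92 probes measured on both) and -0.92 without (381 probes). NM_ probes showed the same order at a higher level, 1.78 with and 0.14 without. With AATAAA alone the TC median was 0.65 over 69 probes, and with ATTAAA -1.04 over 24. The hexamer is a match of letters and not a mapped transcript end. A sense frame free of stop codons was found in 2562 TC probes (75.8%) against 85.6% of all probes. The balance of TC probes without one was -1.15, and that of NM_ probes without one was 1.26. With at least 1 such frame the balances were -0.78 (TC) and 0.30 (NM_).

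Nearby NM_ probes served as a check on what TC probes measure. The files placed 3277 TC probes on the genome, and 697 lay within 1000 bases of an NM_ probe, 97 of them overlapping it. Of these 697 pairs, 56.0% had the same call on both arrays. For the 604 pairs on the same strand the exosome calls were the same in 73.2%. In 119 of them only the NM_ probe was detected, and in 43 only the TC probe. For the 93 pairs on opposite strands the share was 68.8%. In these pairs 75.3% of TC and 78.5% of NM_ probes were detected. TC probes beside an undetected NM_ probe were detected in 65% of opposite-strand pairs and in 29.7% of same-strand pairs. Where the nearest NM_ probe was over 10000 bases away, the exosome calls matched in 56.1% of 761 pairs on the same strand. As a mark of how far annotated probes match each other, 6847 neighbouring NM_ pairs of the same accession within 1000 bases had the same exosome call in 84.9%.

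Spearman's rho of the exosome signals was 0.52 over the 604 close pairs on the same strand. It was 0.04 over the 93 on opposite strands and 0.17 over the 761 distant pairs. The NM_ pairs of the same accession gave 0.76. These are descriptions across pairs that share an array, a neighbourhood and, in part, a transcript. In the supernatant the close pairs on the same strand matched little: 84 TC probes and 97 NM_ probes were detected, and in 19 pairs both were.

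TC probes that were dark beside bright genes show the other side. TC402137, described as ribosomal protein S10, a part of the small ribosomal subunit, gave 2.97 and 2.32 at chr23:8759842-8759901 (-). The RPS10 probe 959 bases away on the same strand gave 196007 and 267. TC408598, described as GDP-mannose 4,6-dehydratase, a sugar nucleotide enzyme, gave 2.30 and 1.82, and the GMDS probe 844 bases away gave 9245 and 1.89. TC414546, without a description, gave 7.19 and 3.23 beside a NEUROG2 probe (954 bases) with 8705 and 92.0. NEUROG2 is a neuronal transcription factor. In each pair the probes lie on the same strand. The pairs were picked as the brightest NM_ probes beside a TC probe detected on neither array, so that contrast is the rule and not a result. By contrast TC471135, described as keratin 7 of simple epithelia, overlaps a KRT7 probe. It gave 4350 and 6.23 where the KRT7 probe gave 3396 and 1.87.

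The descriptions record the protein that the assembled sequence matched best, and a match to another organism is no sign of its RNA. Of the TC probes, 629 were described as Unknown, 877 by a bovine protein, 1157 by one of another vertebrate and 702 by one of another organism, such as a plant, insect or microbe. The last class was detected in 65.5% in the exosome fraction and 14.4% in the supernatant, and the bovine class in 59.98% and 14.7%. The Unknown class gave 59.8% and 17.2%. Detection thus differed by a few points with the kind of name. Where the description said that the match was complete the median balance was 0.14 over the 61 probes measured on both arrays, and where it was partial it was -0.89 over 313. Probes that list several TC numbers (625) were detected on the exosome array in 77.9% and had a median balance of 0.36 over 97 measured on both. Probes that list a single one (2755) were detected in 57.1% and had a median of -1.04 over 376. A RefSeq accession was also listed for 571 probes, and 176 of these matched a current gene symbol.

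Words of the descriptions put TC probes into 15 groups, most with few probes measured on both arrays, and 1999 fell in none. Probes given below that are not the brightest of their group were named after their values were seen. Detection counts were read against the 58.5% (exosome) and 13.1% (supernatant) of all probes. Groups with a balance toward the supernatant were read against the 37.7% of all probes that lay at least 2-fold below the median probe. That share is higher among dim probes. Of 171 TC probes measured on both with an exosome signal under 100, 161 (94.2%) lay at least 2-fold below, and 0 lay above. To be measured on both, a probe needed a supernatant signal of at least 9.04, and the median probe was 10.4-fold brighter in the pellet. For the dimmest probes this filter therefore fixed the side in advance. The part of dim signal in the group counts was not tested. The immune words also met look-alikes such as a chemokine-like FAM19A1 protein and immunoglobulin superfamily member 10. Of 20 immune probes, 6 were measured on both arrays, and all 6 lay at least 2-fold below (median -2.68). Apart from the bright immunoglobulin omega chain probe, their supernatant signals lay between 11.4 and 31.5 and their exosome signals between 18.3 and 75.7. Of 39 transposable element probes, 10 were measured on both, and 9 lay at least 2-fold below (median -2.31). Of these 10, 8 are described as reverse transcriptase-like. Exosome signals of the 10 ran from 16.4 to 150, apart from TC451287 at 1585. Of 26 cytoskeleton probes, 10 were measured on both and 7 lay below (median -1.85). The highest of the 10 was TC401267, described as tubulin alpha-1A, a microtubule subunit, with 1938 and 17.6 (3.41). Of 65 zinc finger probes, 7 were measured on both and 4 lay below (median -2.76).

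Of 5 proteasome and ubiquitin probes measured on both, 3 lay at least 2-fold above the median probe, where 38.3% of all probes did. These are too few probes to set against that share. Among them were TC451952 (2.78), described by a Plasmodium protein at 15 percent coverage, and TC421709 (2.52), and none of the 5 lay 2-fold below. Of 13 probes met by the words for translation factors 5 were measured on both. Of these, 2 (40%, near the 38.3% of all probes) lay 2-fold above and none below. Only TC459418 and TC439779 (described as initiation factor 4 gamma, -0.26) of these 5 act in translation by their description. TC434147, TC436616 and TC456444 are described as transcription factors, at -0.89, 0.03 and 2.08. Of 37 respiration probes 27 were detected in the exosome fraction and 3 in the supernatant. The 3 measured on both ran from -4.80 (TC473682) through 0.45 to 4.31 (TC409939). TC473682 and TC409939 are described as cytochrome b, an electron carrier subunit, of a frog and a mollusc, at 6 and 10 percent coverage.

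Of 24 ribosomal protein probes 15 (62.5%) were detected in the exosome fraction and 3 (12.5%) in the supernatant, near the 58.5% and 13.1% of all probes. Their brightest, TC413136 (ribosomal protein L5), gave 7685 and 6.36. Of 13 histone probes 7 (53.8%) were detected on the exosome array, also near that share, and none on the supernatant array, too few probes to set against 13.1%. The brightest was TC449242, described as the histone acetyltransferase PCAF and thus an enzyme that acts on histones, with 1450 and 2.10. Of 7 chaperone probes 6 and 1 were detected, the brightest being TC415093 (described as BAG5, a chaperone regulator), with 655 and 35.1. Kinase probes (73) were detected in 72.6% and 16.4%, with a median balance of -0.54 over the 11 measured on both. That median is the value of the brightest, TC393058, described as PAK4, a kinase of the cytoskeleton, with 13880 and 1941, which turned to 0.70 after normexp. A PAK4 probe 534 bases away gave 148 and 2.02. Receptor probes (177) were detected in 44.6% and 14.1%, with TC449965, described as an NMDA receptor subunit, the brightest at 13274 and 1726 (-0.43, and 0.81 after normexp). That probe is 76.7% G and C and has no position in the files. Transporter probes (67) were detected in 53.7% and 13.4%. The milk protein words met 4 probes, all described as butyrophilin or a butyrophilin-like protein, and none was detected. TC445045 was the brightest of these, at 2.93 and 4.10. The words missed TC471483, whose text writes alpha S1 casein without hyphens.

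Some descriptions recur. A PAOX protein, after the polyamine oxidase gene, was the description of 69 TC probes, detected in 58.0% and 17.4%. Taste receptor type 2 was that of 33 TC probes, detected in 60.6% and 12.1%, with the bright TC450994 among them. Both groups were chosen after the descriptions were read, and their shares lie near those of TC probes at large.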

How the data were processed

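Bovine 60-base 1-colour Agilent arrays were read with Feature Extraction 10.7.3.1, per the submitters' processing notes. The deposited scanner files give the processed intensity, which the software had background-corrected, per the file headers. The authors' deposited log2 table equals log2 of it for TC probes within 0.001. No step between that and the table is given in the sources used here.

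Control and outlier spots were left out and spots of a probe averaged. A probe was detected where any spot was flagged well above background. Differences are log2 exosome minus log2 supernatant, less the median of the 5307 probes that both arrays measured. Size calls used 2-fold, and no p-value was computed. The 38 probes named by rule were the ends of the difference, the largest bounds, the brightest on each array and in each description group, and pairs beside NM_ probes. Symbols came from a RefSeq table of ARS-UCD2.0. Normexp alternatives used limma 3.58.1 in R 4.3.3, and the rest Python 3.11.15. The summary step was tested on simulated data. Members, lists and rules were chosen with earlier results of these data known. Of the probes that the naming rule selects, 1 is not reported here.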

Additional observations from a re-analysis of the deposited data

How the results depend on the processing

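The 10 class comparisons were recomputed under the alternatives, and 45 values stayed within the 95% counting interval of the value over probes, while 22 moved further and 10 changed sign. These intervals cover probes and not milks. No paired analysis was possible because each fraction has 1 array.

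With the weaker detection flag, 77.9% and 46.0% of TC probes were detected on the exosome and supernatant arrays. With the stricter rule the shares were 45.7% and 4.67%. The supernatant gap to NM_ probes became -0.513 and -0.340 points under these rules. It became -1.003 points with 1 probe per TC number and accession, and -1.36 and -0.154 points within the probe name series, a split chosen after seeing the data. In the second series the exosome gap was -15.6 points and the gap in balance -1.68.

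Against XM_ probes the exosome gap was 10.8 points, the gaps in median log2 signal were 1.35 and 0.0053 (exosome, supernatant), and the gap in balance was 0.13. The gap in median exosome signal was -1.07 with 1 probe per number and -0.25 after normexp. The gap in supernatant signal was -0.045 with 1 probe per number, 0.011 in the middle composition band and -0.10 over detected probes. The gap in balance was -1.73 in that band, -0.88 after quantile normalization and -0.80 with no filter on dim probes.

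TC probes 2-fold above were 34.7% with the weaker flag, 8.03% after 75th percentile scaling and 76.5% unscaled. Those 2-fold below were 36.4% after quantile normalization, 75.7% after 75th percentile scaling and 1.90% unscaled. The share of matching neighbour calls was 44.5% with the weaker flag, 62.1% with the stricter rule and 51.6% within 10000 bases. Of the probes named by rule, TC449965 and TC393058 changed sign after normexp (0.81 and 0.70). In 40 other cases a named value kept its sign but moved by more than the spread between repeat spots (0.18). The lowest, TC425043, went from -6.28 to -3.85 after normexp and -5.33 after quantile normalization. The causes were not tested beyond the construction of each alternative. Most detected supernatant signals lay near background (TC median 22.6, lowest 9.04), which limits them.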
